A study of Arabidopsis thaliana with 20 samples.

Results

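The first 6 h of cold were read from 2 of the 20 arrays of the series: cells of the Arabidopsis suspension line T87 after 6 h at 4 °C, and the same line kept at 22 °C. Both arrays were taken before cordycepin, a nucleoside drug that stops RNA chains from being extended, was added. The measure was the difference of the log2 intensities, 4 °C minus 22 °C, over 22746 of 22810 probe sets, leaving out the 64 control probe sets. With 1 array a side there is no replicate check and no test, so sizes and directions are given as values of these arrays.

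The series holds 5 sets of 4 Affymetrix ATH1 arrays of total RNA, each array a single sample. The cold sets were sampled after 6, 12, 24 and 36 h at 4 °C, each at 0, 4, 8 and 12 h of cordycepin, and the 22 °C set at 0, 0.5, 2 and 4 h of cordycepin. It asks how mRNA amounts and mRNA stability change with time in the cold. All cells were of T87, a Columbia (Col-0) suspension culture shaken in constant light. The cells at 4 °C stood in dim light of 40 µmol per square metre and second, and those at 22 °C in 80, so cold and light cannot be told apart. The growth protocol names cold times of 12, 24 and 36 h, and the 6 h time stands in the titles and the study design. The labels do not say whether arrays came from separate cultures. T87 is undifferentiated and has no marker of its own. Of 20 marker genes of seeds, roots, stomata, phloem, meristems and flowers, 5 were measured. For this and all lists below, measured means that a probe set carries the name of that gene alone. The 5 were FMA, EXPA7, EXPA18, CLV3 and AT5G45880, so no listed seed or phloem marker was read under a name. Their intensities lay between 10.7 and 22.5 on both arrays. The 10th percentile of an array was close to this (10.1 in the cold and 10.2 at 22 °C). In a bulk RNA sample, fewer cells of a kind and less RNA per cell cannot be told apart.

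Plants moved to the cold open a fast response within hours, which includes calcium entry, calcium sensors and zinc finger and AP2 transcription factors. The CBF factors then switch on the cold-regulated (COR) genes, many of which encode dehydrins and other hydrophilic proteins that protect membranes and enzymes during freezing. Small heat shock proteins are chaperones that hold unfolding proteins in solution, and they are best known from heat and oxidative stress. Enzymes that cut, rejoin or loosen wall polysaccharides are among the genes that answer touch, cold and growth signals.

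After 6 h of cold, far more transcripts were higher than lower at differences of 2-fold and beyond. Counting differences of 2-fold or more, 502 probe sets were higher (2.21% of 22746) and 102 were lower (0.448%). At 4-fold the counts were 196 higher (0.862%) and 1 lower (0.00440%), so the large differences lay almost wholly on the high side. At 1.5-fold they were closer, 938 higher and 752 lower. Over all probe sets the median difference was -0.02, the interquartile range 0.288 and the extremes 6.82, from a 22 °C signal below the 10th percentile of the array, and -2.04 on the log2 scale. The probe sets counted higher had a median intensity of 274 in the cold and 66.3 at 22 °C, and those counted lower 70.7 in the cold and 169.6 at 22 °C.

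For a sense of array noise, the step from 8 to 12 h of cordycepin within the 6 h cold set gave 12 probe sets at least 2-fold higher (0.0528%) and 8 lower (0.0352%), with an SD of 0.198 over all probe sets. The step from 4 to 8 h gave 28 higher (0.123%) and 42 lower (0.185%). These are arrays of different treatment times, not replicates, and the SD of the 6 h cold difference was 0.444. The medians of both arrays, 64.2 in the cold and 64.4 at 22 °C, lay close together, and those of all 20 arrays between 50.3 and 68.6. Counted by gene, with the brightest probe set of each of 13356 named genes, 275 genes were 2-fold or more above 22 °C (2.06%) and 63 were 2-fold or more below (0.472%). Counts of list members are to be read against these shares. They cover only members that a probe set names alone. For 8730 probe sets no gene is named, and 503 carry several names. Listed genes not counted as measured may thus be on the array, and their values could change the counts.

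**Figure D1:**
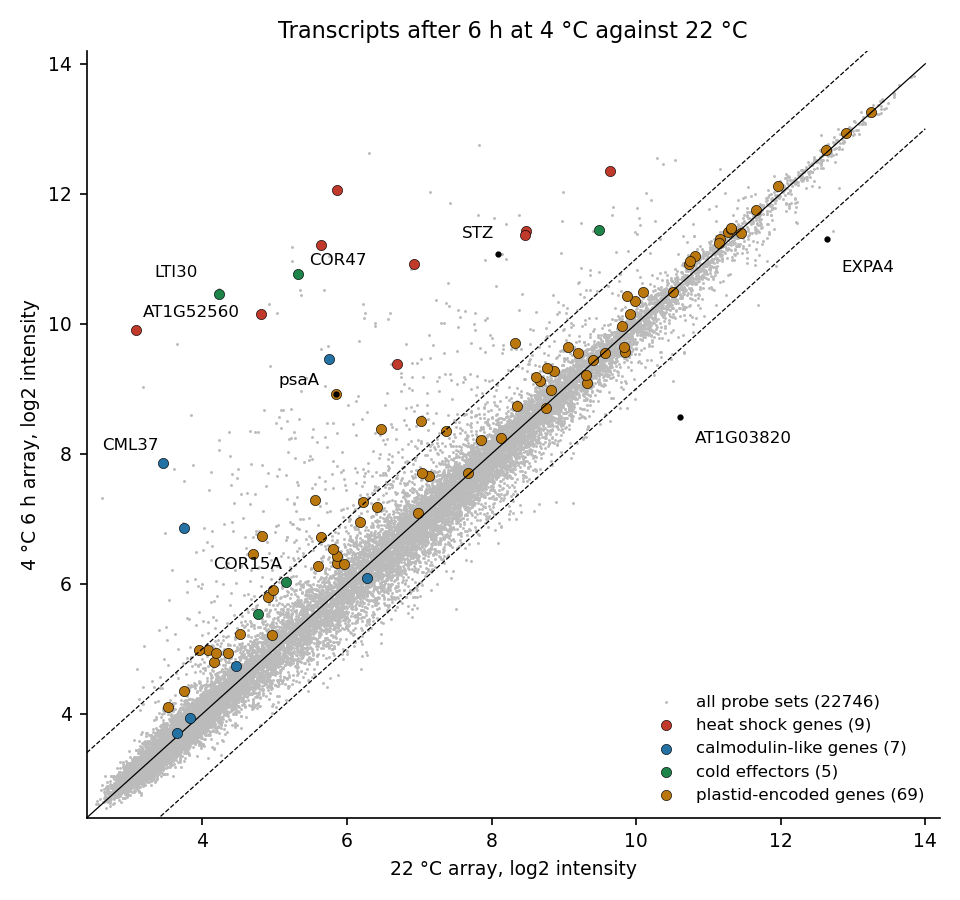
Log2 intensity of 22746 probe sets after 6 h at 4 °C (vertical axis) against 22 °C (horizontal axis), 1 array each, with the line of equality and dashed lines at a 2-fold difference. Heat shock genes, 3 calmodulin-like genes, 3 cold effectors and 10 plastid-encoded genes lie above the upper dashed line, and EXPA4 and AT1G03820 below the lower one.

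Of the 20 highest named genes, 17 had a 22 °C signal at or above the 10th percentile of that array (10.2) and were between 13.0-fold and 75.3-fold higher in the cold, log2 differences of 3.70 to 6.24. The other 3, AT1G52560, AT1G10260 and AT1G48720, lay below it at 22 °C. No detection calls were used here, so their differences and ranks are not exact. For each, the cold signal is given as a fold over that percentile, which is no strict bound. The 20 held 5 heat shock genes, 2 dehydrins, 2 calmodulin-like genes and genes that the platform table gives by locus alone and that no list here holds. AT5G02140 had an intensity of 1259.7 in the cold and 30.2 at 22 °C, a log2 difference of 5.38. AT5G11070 had 1151 in the cold and 32.9 at 22 °C (5.13), and AT1G33760 1464 in the cold and 51.4 at 22 °C (4.83). These transcripts stood below the median of the 22 °C array and far above the median of the cold one. AT5G15950 had 297 in the cold and 18.8 at 22 °C (3.98), AT3G46070 325 in the cold and 20.7 at 22 °C (3.97), AT1G69570 785 in the cold and 50.1 at 22 °C (3.97) and AT2G23110 217 in the cold and 12.2 at 22 °C (4.15). AT1G10260, annotated as a pseudogene, had 523 in the cold and 9.05 at 22 °C, its cold signal being 51.3-fold over that percentile. AT1G48720 had 160.1 in the cold and 6.095 at 22 °C, its cold signal being 15.7-fold over it. Both of these are read by probe sets that match several related transcripts, so their signal may come from a near copy.

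Heat shock genes were higher as a group. All 9 measured of the 25 listed heat shock proteins and factors were at least 2-fold higher in the cold, with a median log2 difference of 3.99, against -0.01 over all 13356 genes. The other listed members were not read under a name and may be on the array, so the count holds for the 9 alone. The list was put together with earlier results of these data known, so its direction is a description. AT1G52560, listed as a small heat shock protein, had an intensity of 956 in the cold and 8.47 at 22 °C. Its cold signal was 93.8-fold over the 10th percentile of the 22 °C array. AT1G53540, also a small heat shock protein, had 4243 in the cold and 58.1 at 22 °C (6.19). AT2G29500, of the same class, had 2385 in the cold and 49.95 at 22 °C (5.58), and ATHSP22.0, a small heat shock protein of the endomembrane system, 1142 in the cold and 28.1 at 22 °C (5.35). These transcripts thus stood below the array median at 22 °C and far above it after 6 h of cold.

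The other small heat shock genes were brighter at 22 °C. AT5G37670 had 1936 in the cold and 122 at 22 °C (3.99), AT5G51440 2766 in the cold and 357 at 22 °C (2.96) and AT1G54050 5223 in the cold and 797 at 22 °C (2.71). AT5G48570, the FK506-binding co-chaperone ROF2, had 2643 in the cold and 354 at 22 °C (2.90), and HSA32, needed to keep acquired heat tolerance, 669.8 in the cold and 104 at 22 °C (2.69). Co-chaperones outside the list, chosen after their values were seen, were higher as well. Fes1A, a partner of Hsp70, had 1529 in the cold and 268 at 22 °C (2.51), and Hop3, which links Hsp70 with Hsp90, 957 in the cold and 218 at 22 °C (2.13).

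Calcium sensors of the calmodulin-like family were higher in part. Of 7 measured calmodulin-like genes, 3 were at least 2-fold higher and 0 lower, with a median log2 difference of 0.27. CML37 had an intensity of 232 in the cold and 11.01 at 22 °C (4.40), CML38 702 in the cold and 53.95 at 22 °C (3.70) and CML23 116 in the cold and 13.4 at 22 °C (3.11). CML37 and CML23 stood close to the 10th percentile of the array (10.2) at 22 °C, so their sizes are uncertain, and the other 4 measured members differed by less than 2-fold.

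Among early regulators, 2 of 3 measured of 26 listed genes were at least 2-fold higher. STZ, a zinc finger repressor of the stress response also known as ZAT10, had 2157 in the cold and 272 at 22 °C (2.99). PUB19, a U-box ubiquitin ligase that tempers drought and abscisic acid responses, had 357 in the cold and 32.3 at 22 °C (3.46), the 1 higher gene of 9 measured U-box ligases (median 0.01). WRKY53, a senescence and defence regulator, had 191 in the cold and 193 at 22 °C (-0.02), and 0 of 6 measured WRKY genes were past 2-fold (median -0.09). Of 19 measured bZIP and bHLH factors, 1 was higher, bZIP44, with 220.2 in the cold and 95.7 at 22 °C (1.20), and the median was -0.07. The CBF genes themselves are not among the genes named here.

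The cold effectors split into dehydrins already far up at 6 h and COR15 genes still within 2-fold of 22 °C. Of 5 measured of 23 listed effectors, 3 were at least 2-fold higher and 0 lower, with a median log2 difference of 1.96. LTI30, a dehydrin that binds membranes, had an intensity of 1414 in the cold and 18.8 at 22 °C (6.24), and COR47, an acidic dehydrin, 1736 in the cold and 40.03 at 22 °C (5.44). SRC2, a C2-domain membrane protein, had 2784 in the cold and 716 at 22 °C (1.96). COR15A, which protects chloroplast membranes, had 65.3 in the cold and 35.6 at 22 °C (0.87), and its close relative COR15B, named outside the rule after its value was seen, 46.4 in the cold and 27.4 at 22 °C (0.76). TIL, a temperature-induced lipocalin chosen after its value was seen, had 3848 in the cold and 1184 at 22 °C (1.70).

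The later cold arrays place this split in time. The log2 differences from 22 °C at 6, 12, 24 and 36 h were 6.24, 9.68, 9.89 and 9.80 for LTI30. For COR47 they were 5.44, 7.85, 8.33 and 7.94, and for COR15A 0.87, 5.49, 6.50 and 6.32. For COR15B they were 0.76, 6.55, 7.76 and 7.60. All 4 of these differences share the 22 °C array. The dehydrins stood 5.44 or more above 22 °C by 6 h. From 6 to 12 h LTI30 rose by a further 3.44 and COR47 by 2.41, and both gained little after 12 h. LTI30 was the brightest reading of the 12 h array (15385) and of the 24 h array (17866), so a further gain may not show. The step from 6 to 12 h carried most of the COR15A difference (4.61) and of the COR15B difference (5.79).

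Clock and light genes were split. Of 4 measured of 21 listed genes, 2 were at least 2-fold higher and 0 lower, with a median of 0.84. HYH, a bZIP factor of light signalling, had 119 in the cold and 32.3 at 22 °C (1.88), and AT4G33980, listed beside COR27 as its near relative, 180.1 in the cold and 84.2 at 22 °C (1.10). COR27, a night-phased clock protein, had 174 in the cold and 117 at 22 °C (0.57), and GI, the clock and flowering gene GIGANTEA, 144 in the cold and 162 at 22 °C (-0.17). COR27 was past 2-fold from 12 h and GI at 24 and 36 h, with log2 differences at 6, 12, 24 and 36 h of 0.57, 2.06, 4.22 and 3.66 for COR27 and -0.17, 0.91, 1.92 and 1.65 for GI. HYH was past 2-fold at all 4 times, with 1.88, 3.57, 4.33 and 4.33.

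Cell wall genes differed by family and in both directions. Xyloglucan endotransglucosylases cut xyloglucan and rejoin it, and of 9 measured 2 were at least 2-fold higher (median 0.04). XTH18 had an intensity of 412 in the cold and 37.4 at 22 °C (3.46), and its neighbour XTH19 58.4 in the cold and 13.8 at 22 °C (2.09). The pair is close in sequence and may share probe signal. All 3 expansin-like A genes measured were higher (median 1.76), with 1035 in the cold and 158 at 22 °C for EXLA1 (2.72), 176 in the cold and 51.8 at 22 °C for EXLA3 (1.76) and 373 in the cold and 139.7 at 22 °C for EXLA2 (1.42). They too are close relatives, so the counts are not of independent readings.

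Alpha-expansins, which loosen walls of growing cells, held 1 lower gene of 10 measured (median 0.01). EXPA4 had 2529 in the cold and 6356 at 22 °C (-1.33) and was among the bright transcripts at 22 °C. The other 9 were within 2-fold, but the list was dim. Its median intensity was 16.9 in the cold and 17.1 at 22 °C, near the 10th percentile of the 22 °C array (10.2), where a fall could hardly show. Glycosyl hydrolase 9 endoglucanases trim cellulose and xyloglucan, and 2 of 15 measured were lower (median -0.05). GH9B6 had 49.1 in the cold and 181 at 22 °C (-1.89), and GH9C2 460.4 in the cold and 1015 at 22 °C (-1.14). Of 5 measured of 17 listed wall-loosening genes, which overlap these families, 2 were higher and 1 lower (median 0.08). TET9, a tetraspanin membrane protein, had 217 in the cold and 22.6 at 22 °C (3.26) and was the 1 higher gene of 15 measured tetraspanins (median -0.01). EXO, a growth protein that brassinosteroids raise and that was chosen after its value was seen, had 3063 in the cold and 1230.1 at 22 °C (1.32).

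**Figure D2:**
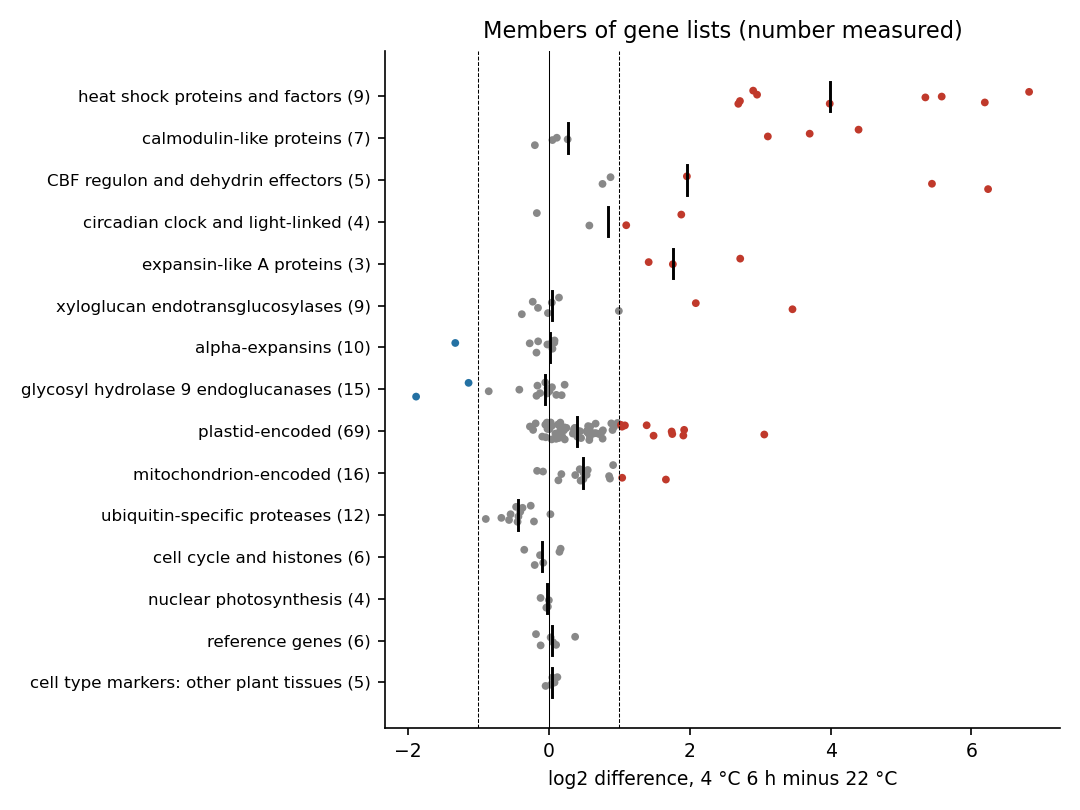
Log2 difference of single genes, 4 °C 6 h minus 22 °C, for 15 gene lists with the number measured in brackets. Black bars are list medians, dashed lines mark 2-fold, and red and blue points are genes past it. All 9 heat shock genes and all 3 expansin-like A genes lie right of the 2-fold line, the 69 plastid-encoded genes spread from -0.27 to 3.06, and nuclear photosynthesis, reference, cell cycle and tissue marker genes lie near 0.

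Before cordycepin, signals of transcripts encoded in the organelles leaned upward. For the plastid this did not hold at the matched time of 4 h of cordycepin. Whether these signals follow transcript amount was not tested. Of 69 measured plastid-encoded genes, 10 were at least 2-fold higher and 0 lower, with a median log2 difference of 0.39. The highest was psaA, which encodes a core subunit of photosystem I, with 482 in the cold and 57.9 at 22 °C (3.06). atpF, of the ATP synthase, had 107 in the cold and 28.2 at 22 °C (1.92), and psbD, of the photosystem II core, 334 in the cold and 88.96 at 22 °C (1.91). The ribosomal gene rps14 had 87.7 in the cold and 26.1 at 22 °C (1.75), and rbcL, the large subunit of Rubisco, 838 in the cold and 320.3 at 22 °C (1.39). psbB, psbA, rpl20, psbN and petL made up the rest, with log2 differences of 1.74, 1.49, 1.08, 1.04 and 1.02. At the matched time of 4 h of cordycepin the median of the 69 was -0.58, against -0.16 over all probe sets, with 13 above 22 °C and 56 below. Of the 10 higher genes only psaA (0.26) and rbcL (0.82) were above 22 °C there, and only these lay above on all 3 cold arrays with cordycepin. The other 8 were below at 4 h, from -0.04 for psbD to -1.58 for petL. The later cold arrays read higher. The median intensity of the 69 was 427, 552 and 664 in the 6 h cold set at 4, 8 and 12 h of cordycepin. At 22 °C it was 351, 349 and 428 at 0.5, 2 and 4 h, and no 22 °C array matches the 8 and 12 h times.

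Of 16 mitochondrion-encoded genes, 2 were at least 2-fold higher and 0 lower (median 0.49). They were cox1 with 819 in the cold and 259 at 22 °C (1.66) and cox2 with 900.1 in the cold and 438 at 22 °C (1.04), both subunits of cytochrome c oxidase. All 3 cordycepin arrays of the 6 h set lay above all 3 at 22 °C (18% of all probe sets) for 8 of the 69 plastid-encoded genes and 10 of the 16 mitochondrion-encoded ones. All 3 lay below for 0 genes of either list (35.8% of all probe sets). psaA stood at 171, 386 and 582 on the 6 h cold arrays with 4, 8 and 12 h of cordycepin and at 95.3, 119 and 143 on the 22 °C arrays with 0.5, 2 and 4 h. Its signal thus moved on both sets of arrays after cordycepin. Nuclear photosynthesis genes stayed within 2-fold, with 0 of 4 measured of 20 listed genes past 2-fold and a median of -0.03.

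The lower genes were fewer and moved less. The 15 lowest named genes were between 2.46-fold and 4.12-fold lower in the cold, log2 differences of -1.30 to -2.04. AT1G03820 had an intensity of 378 in the cold and 1560.2 at 22 °C (-2.04), AT5G22700 151 in the cold and 557 at 22 °C (-1.88) and AT5G44390 153 in the cold and 476 at 22 °C (-1.63). HCT, an enzyme of the lignin pathway, had 557 in the cold and 1463 at 22 °C (-1.39), and BRL1, a brassinosteroid receptor, 138 in the cold and 341 at 22 °C (-1.30). AT3G61820 had 1256 in the cold and 3288 at 22 °C (-1.39). GH9B6 and EXPA4, given with the wall genes, are among the 15. The others were AT2G14460, AT4G32290, AT1G02810, AT5G23400, AT1G61840, AT5G45700 and AT4G39675, with differences between -1.47 and -1.34. Further named genes just past 2-fold were chosen after their values were seen. TRZ3, a tRNA 3' processing enzyme, had 118 in the cold and 248 at 22 °C (-1.08). ACA.l, a calcium ATPase, had 59.97 in the cold and 121 at 22 °C (-1.01), and GMII, a Golgi mannosidase, 58.3 in the cold and 117 at 22 °C (-1.01).

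The lower genes followed different courses afterwards. The log2 differences from 22 °C at 6, 12, 24 and 36 h were -2.04, -2.46, -4.47 and -3.63 for AT1G03820 and -1.33, -2.66, -4.16 and -2.85 for EXPA4. Both were lower still on each later array. For HCT they were -1.39, -0.22, 0.44 and -0.18, for BRL1 -1.30, -0.51, 0.24 and 0.18 and for AT5G44390 -1.63, -0.16, 0.07 and 0.08. These genes stood within 2-fold of the 22 °C array from 12 h on.

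**Figure D3:**
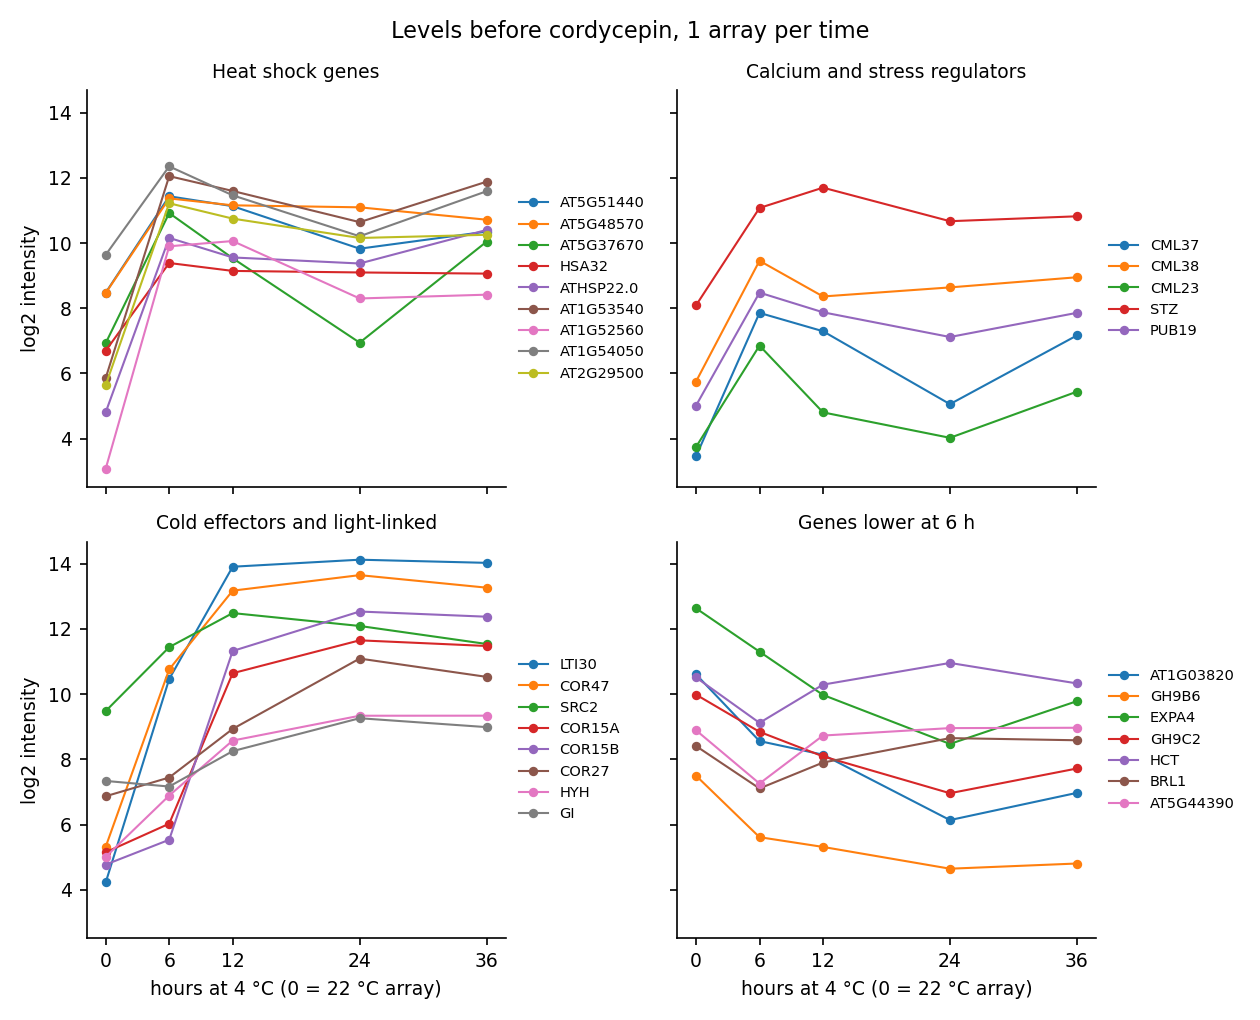
Log2 intensity before cordycepin against hours at 4 °C, with the 22 °C array at 0, for heat shock genes, calcium and stress regulators, cold effectors with light-linked genes, and genes lower at 6 h, 1 array per time. Heat shock genes peak at 6 or 12 h apart from ATHSP22.0, COR15A and COR15B climb mainly between 6 and 12 h, and HCT, BRL1 and AT5G44390 dip at 6 h.

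Many of the gene lists held few or no members past 2-fold. Among 6 cell cycle and histone genes of 22 listed, 0 were past it (median -0.10), as were 0 of 6 reference genes of 14 listed (median 0.04). The counts were also 0 for 24 cytochrome P450 genes (median 0.07), 13 glutathione transferases (-0.09), 12 ubiquitin-specific proteases (-0.44), 8 autophagy genes (0.29), 11 RALF-like peptides (0.02), 7 tubulins (-0.01), 6 LSM proteins (0.21), 7 Aux/IAA proteins (-0.12) and 7 glutamate receptors (-0.29). RNA-binding proteins and chaperones (4 of 16 measured, median -0.02), hormone response genes (3 of 31, -0.23) and phenylpropanoid genes (2 of 14) gave 0 as well. With 2.06% of all genes higher, a count of 0 sets none of these short lists apart. Some were also dim. Median intensities in the cold and at 22 °C were 13.1 and 12.4 for cytochrome P450 genes and 14.9 and 15.1 for glutathione transferases. For Aux/IAA proteins they were 17.9 and 19.1. So near the 10th percentile (10.1 and 10.2) a fall could hardly show. Of 47 UDP-glycosyltransferases, 1 was higher (2.13%, near the share over all genes), UGT71B5, with 106 in the cold and 48.8 at 22 °C (1.12), and the median was 0.00. Of 14 SWEET sugar transporters, 1 was higher, SWEET1, with 123 in the cold and 36.9 at 22 °C (1.74). SWEET1 was also the 1 higher gene of 5 measured of 21 starch and sugar genes (median 0.13). The ubiquitin-specific proteases had the lowest list median, and UBP21 of that list had 102 in the cold and 190.0 at 22 °C (-0.90).

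Because light was dimmer for the cells in the cold, genes of dim light and sugar starvation were listed. Only 2 of the 17 were measured, AT5G57655 with 107 in the cold and 137 at 22 °C (-0.35) and AKINBETA1, a subunit of the SnRK1 energy sensor, with 160.0 in the cold and 170.0 at 22 °C (-0.09). Neither was past 2-fold, and the part of light in the other differences was not tested. Of 3 measured oxidative stress genes of 20 listed, 1 was higher, AT2G21640, with 221 in the cold and 109 at 22 °C (1.02). GSTU25 and NDB2 had differences of -0.12 and -0.03. Of 16 listed genes of membrane lipid remodelling, 0 were measured under a name.

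The arrays with cordycepin give readings that the 6 h difference did not use, 3 after 6 h of cold (4, 8 and 12 h of cordycepin) and 3 at 22 °C (0.5, 2 and 4 h). Cordycepin times differ between these sets, so transcript decay enters the comparison. The cold arrays were also taken 4, 8 and 12 h after the 6 h point, so later time enters as well. They are thus not a second reading of the 6 h difference. Of the 502 probe sets counted higher, 432 (86.1%) were above on all 3 cold arrays, against 18% of all probe sets, and 2 were below on all 3. The 20 highest named genes were all above. Of the 102 counted lower, 27 (26.5%) were below on all 3 cold arrays and 12 (11.8%) above, while 35.8% of all probe sets were below. The lower probe sets were below at a smaller share than probe sets at large, but the 2 groups differ in brightness. Of the 102, 94.1% reached the table median intensity (61.4) on the brighter array before cordycepin, against 52.4% of all. The 10th percentile was 10.9 to 11.8 on the 22 °C arrays with cordycepin and 10.1 to 10.3 on the cold ones. The share over all probe sets is thus no matched background.

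**Figure D4:**
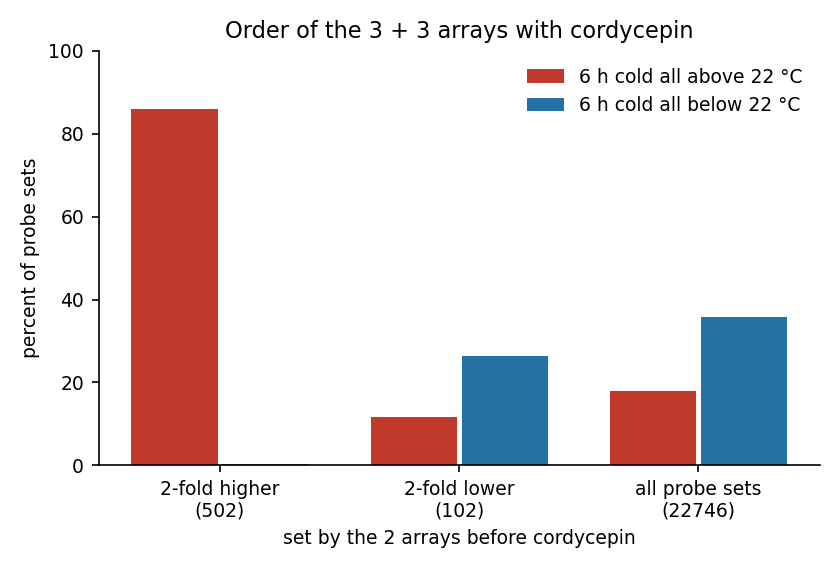
Percent of probe sets for which all 3 cordycepin arrays of the 6 h cold set lay above (red) or below (blue) all 3 cordycepin arrays at 22 °C, for probe sets counted higher, counted lower, and all. The red bar stands at 86.1% for the higher set and 18% for all, and the blue bar at 26.5% for the lower set and 35.8% for all.

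At the matched time of 4 h of cordycepin, 1 array a side, 381 of the 502 were at least 2-fold higher in the cold (12.9% of all probe sets were) and their median difference was 2.00, against -0.16 over all. Of the 102, 7 were at least 2-fold lower (6.33% of all) and 21 at least 2-fold higher, with a median of 0.44. The 102 had lost more signal at 22 °C. Between 0.5 and 4 h of cordycepin 37 of them dropped at least 2-fold (7.15% of all probe sets did), with a median of -0.71 against 0.04 over all. The same step for the 502 had a median of 0.12, with 34 dropping and 49 gaining at least 2-fold (2.26% of all gained). In the 6 h cold set the step from 4 to 12 h of cordycepin had a median of -0.34 for the 502, -0.29 for the 102 and 0.02 over all, and 70 of the 502 and 11 of the 102 dropped at least 2-fold (0.875% of all). Of the 502, 17 gained at least 2-fold over that step (0.589% of all).

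AT2G14460 and AT5G45700 show how a lower gene can stand on these arrays. AT2G14460 had 62.4, 37.7 and 26.6 on the cold arrays with cordycepin and 22.3, 14.97 and 16.8 on the 22 °C ones, after 98.7 in the cold and 273 at 22 °C before cordycepin. AT5G45700 had 111, 76.7 and 40.2 on the cold arrays and 32.7, 14.4 and 12.9 on the 22 °C ones, after 68.3 in the cold and 173 at 22 °C before it. Both lay lower in the cold before cordycepin and above 22 °C on all 3 later cold arrays. EXPA4 had 1602, 1234 and 810.2 on the cold arrays and 3663, 1779 and 952 on the 22 °C ones, so the sets overlapped. AT1G03820 had 253, 263 and 216 against 1193, 538 and 343 and stayed below throughout.

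The families differed in how their level held on the cold arrays after cordycepin. The median intensity of the 9 heat shock genes was 2385, 1971, 2029 and 2178 at 0, 4, 8 and 12 h of cordycepin after 6 h of cold. At 22 °C it was 104, 159, 203 and 168 at 0, 0.5, 2 and 4 h, and all 9 were above on the cordycepin arrays. LTI30 had 7557, 6898 and 6185 at 4, 8 and 12 h after 1414 at 0 h, and COR47 3050.3, 3529 and 4381 after 1736. COR15A had 253, 425 and 571 after 65.3, and COR15B 492, 683 and 763 after 46.4. SRC2 had 4525, 4058 and 4056 after 2784. The 5 measured cold effectors thus read higher in the presence of cordycepin, and all were above the 22 °C arrays. Over all probe sets the step from 0 to 4 h of cordycepin in this set had a median of -0.03 and an interquartile range of 0.252. Whether transcript still accumulated with the drug present was not tested. Calcium sensors went the other way. CML37 had 91.2, 42.5 and 37.5 after 232 at 0 h. CML23 had 39.8, 26.2 and 20.1 after 116, and CML38 239.5, 201 and 178 after 702. Intensities are relative to the other transcripts of an array, so a level that holds under cordycepin is a level relative to them.

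Many of the transcripts higher at 6 h had a low point at 24 h. This uses the 12, 24 and 36 h arrays, which the 6 h difference does not contain. For 300 of the 502 higher probe sets (59.8%) the 24 h array lay below both the 12 and the 36 h array, against 30.6% of all probe sets and 36 of the 102 lower ones (35.3%). From 12 to 24 h, 144 of the 502 fell (1.78% of all did) and 12 rose (1.02%) at least 2-fold, with a median of -0.61. From 24 to 36 h, 89 rose (0.743% of all) and 9 fell (0.506%) at least 2-fold, with a median of 0.25. Of the 20 highest named genes, 17 had this low point. AT4G27657 had 1088, 285, 35.8 and 492 at 6, 12, 24 and 36 h, AT5G11070 1151, 290.1, 52.9 and 371, and AT1G10260 523, 77.05, 60.6 and 510.1. AT5G37670 had 1936, 741, 123 and 1054, its 24 h level being close to the 122 of the 22 °C array. With 1 array per time, a feature of the 24 h array and of the culture it came from cannot be told apart from a course in time.

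The genes higher at 6 h were shorter than genes at large. In the TAIR10.1 annotation, the median gene length of the higher genes was 1335 bp (interquartile range 997.5 to 1978, 271 of 275 with a length), of the lower genes 2403 bp (1763.5 to 3205.5, 62 of 63) and of all genes 2105 bp (1400 to 3044, 13286 of 13356). What moves with gene length was not tested.

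**Figure D5:**
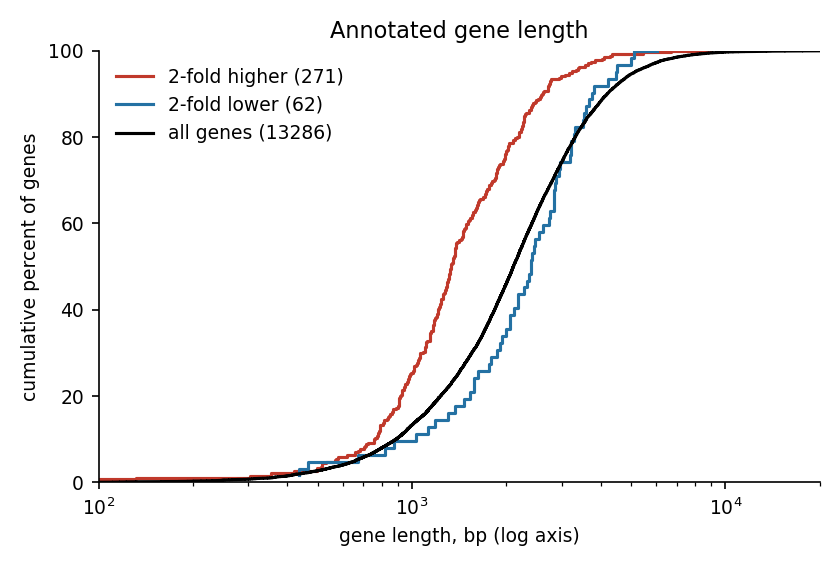
Cumulative percent of genes by annotated length (log axis, bp) for genes at least 2-fold higher at 6 h (red), at least 2-fold lower (blue) and all genes (black). The red curve runs left of the black one, with medians of 1335 and 2105 bp, and the blue curve lies to its right over most of the range, with a median of 2403 bp.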

How the data were processed

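Total RNA of T87 cells was hybridised to Affymetrix ATH1 arrays. The authors summarised probe sets with RMA in the affy package, per the submitters' processing notes, with no version given in the sources used here. Deposited intensities are linear and were normalised between arrays, so the fall of total mRNA after cordycepin is not in the values. Log2 was taken here from the deposited intensity, and the 22 °C value was subtracted from the 4 °C value. The number of arrays limits the precision: 1 array a condition allows no test, and the 20 samples are not labelled as replicates of each other.

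Of 22746 probe sets other than controls, 13513 (59.4%) have 1 gene in the platform table, 503 several and 8730 none. The brightest probe set stood for each of 13356 genes, of which 13286 matched TAIR10.1 by Entrez identifier and 70 did not. Symbols other than a locus were given for 1557 genes. The deposited table names no genome build, so no coordinates are given.

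The members and lists were chosen with earlier results of these data known. Of 39 lists, 17 were set by locus and 22 by gene symbol or organelle genome, the 22 rewritten once the platform table was seen. Named genes are the 20 highest and 15 lowest among genes at or above the table median (61.4) on the brighter array, up to 4 members per list with the largest difference, members past 2-fold, COR15A, COR47, STZ and GI, and the 3 genes on each side of the 2-fold line. Others are said to be outside this rule. Alternatives were bright probe sets, centring on reference genes or the median, quantile normalization, lines through each set's 4 arrays, other fold limits, genes for probe sets and, per gene, an average over probe sets. The counting was tested on simulated data. Python 3.11.15, numpy 2.4.6, pandas 2.3.3 and matplotlib 3.10.9 were used.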

Additional observations from a re-analysis of the deposited data

How the results depend on the processing

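The counts were 502 probe sets higher and 102 lower as deposited. They were 458 and 96 over probe sets at or above the table median on the brighter array, a filter that a probe set can pass through the array where it is high (91.2% of the higher, 94.1% of the lower and 52.4% of all passed) and that is no check on the counts. They were 478 and 128 centred on reference genes (a shift of 0.04 on the log2 scale), 517 and 90 centred on the median, and 498 and 102 after quantile normalization. Other definitions moved them further. At 4-fold they were 196 and 1, at 1.5-fold 938 and 752, and over genes 275 and 63. With the 0 h level taken from the line through each set's 4 arrays, 792 were higher and 78 lower, and AT5G45700 and AT2G14460 had differences of 0.28 each, the opposite sign to the deposited 0 h arrays. Among the 73 higher and 22 lower genes in the table of named genes, 67 and 10 stayed past 2-fold the same way with those lines, 67 and 22 with reference genes, 73 and 17 with the median, 72 and 18 with quantiles, and 71 and 22 with an average over the probe sets of a gene. These genes were taken as past 2-fold from the same 2 arrays, and both centring shifts were small (0.04 and -0.02). The numbers that stayed are thus no independent check. Chosen after seeing the data, the arrays with cordycepin gave 4105 probe sets above and 8137 below without overlap. Those at 4 h of cordycepin gave 2941 and 1439 past 2-fold. Both of these add transcript decay and time after the 6 h point. The 22 °C arrays with cordycepin also had lower medians (50.3 to 55.4) than those of the 6 h cold set (60.2 to 64.2). No paired analysis was possible because each condition has 1 array. Leaving out an array would leave no comparison, so that alternative was not run, nor were those on promoter motifs, for which no sequences were used here. Differences of dim probe sets are the least certain, since intensities near 10 lie at the lower end of an array.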

Other observations

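Neighbouring genes were higher together in a few places. Among 5818 pairs of adjacent measured protein-coding genes in the TAIR10.1 order, both were at least 2-fold higher in 10 pairs and both lower in 0. At least 1 gene was higher in 257 pairs, and both were in 3.89% of these. Of the 12224 measured genes on chromosomes 1 to 5, 2.09% were higher. That is a share of single genes and not of pairs, so it is no baseline for the 3.89%. Whether the pairs exceed a share for unrelated genes was not tested. The pairs described here were chosen after their values were seen. AT4G27652, AT4G27654 and AT4G27657 lie in a row on chromosome 4, with log2 differences of 2.95, 3.96 and 3.85. AT4G27652 had 1278 in the cold and 165 at 22 °C, and after 0.5 h of cordycepin at 22 °C it stood at 18.1. The pair AT2G23110 and AT2G23120 on chromosome 2 had 4.15 and 1.87, and AT2G32020 and AT2G32030 had 3.55 and 1.46. AT1G66080 and AT1G66090 had 1.86 and 2.77, and AT4G30450 and AT4G30460 had 1.20 and 2.13. XTH18 with XTH19 and EXLA3 with EXLA1 are also such pairs and are near copies of each other. Whether nearby copies share probe signal was not tested.

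Further genes, chosen after their values were seen, add to the picture of 6 h. LCR68, of the plant defensin family, had 433 in the cold and 64.8 at 22 °C (2.74). NET4B, an actin-binding membrane protein, had 233 in the cold and 78.3 at 22 °C (1.57), and RING1, a ubiquitin ligase, 76.4 in the cold and 33.8 at 22 °C (1.17). Just under 2-fold lower were OTP84, an RNA editing factor of chloroplasts, with 48.3 in the cold and 94.3 at 22 °C (-0.97), and POL, a protein phosphatase of stem cell signalling, with 287 in the cold and 545 at 22 °C (-0.93).

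The platform table leaves part of the response without gene names. Of the 502 higher probe sets 279 have 1 gene, 14 several and 209 none, and of the 102 lower 63 have 1 gene and 39 none. Of the 20 highest probe sets of all, 10 are not named. Among these, 252515_at had 6331 in the cold and 79.3 at 22 °C (6.32), and 253884_at had 1485 in the cold and 18.7 at 22 °C (6.31). On the low side, 248908_at had 25.8 in the cold and 73.2 at 22 °C (-1.50), and 254836_at had 139 in the cold and 385 at 22 °C (-1.47).

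The 2-fold line parts genes of nearly equal difference. Just inside it were AT5G58787 (1.00), AT1G68670 (1.01) and AT2G21640 (1.02) on the high side, and AT4G32800 (0.996), RALFL22 and AT4G34150 just outside it at 0.995. On the low side GMII, AT3G56870 and AT5G61890 lay inside at -1.01, -1.01 and -1.01, and AT5G24830, AT2G41770 and AT1G69280 outside at -0.99, -0.99 and -0.98.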
